A study of Homo sapiens with 5 samples.

Results

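Cells make serine from the glycolytic intermediate 3-phosphoglycerate through PHGDH, PSAT1 and PSPH, and then pass a carbon unit of serine to folate through the serine hydroxymethyltransferases SHMT1 and SHMT2. Folate-bound carbon is oxidized in parallel sets of reactions in the cytosol and in mitochondria, and the formate that mitochondria release feeds purine and thymidylate synthesis in the cytosol. The 10 genes of this route were examined in the human small-cell lung cancer (SCLC) cell line NCI-H209. They were chosen by name as a pathway, with no threshold on their values, from the 64837 entries of the count tables, and all 10 were among the 20360 genes that passed the filter on low counts. They are the 3 enzymes of serine synthesis, both serine hydroxymethyltransferases, and the folate enzymes MTHFD1, MTHFD1L, MTHFD2, MTHFD2L and ALDH1L2. NCI-H209 is an established cell line, so each library samples that 1 line.

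The control group was 3 libraries of untreated NCI-H209 cells, and the co-cultured group was 2 libraries of NCI-H209 cells kept for 24 h below a Transwell insert that held human brain microvascular endothelial cells (HBMECs). The cells shared medium across a porous membrane, and RNA of the tumor cells, depleted of ribosomal RNA, was sequenced with a directional kit. The comparison asks how gene expression of the tumor cells differs after co-culture with vessel cells of the brain. The paper names the controls only as parental cells and mentions no empty insert or matched medium for them. Effects of the endothelial cells, the insert, the medium and the number of cells per well cannot be told apart. The labels do not say whether replicates were cultured separately, so the p-values measure the spread between these libraries, which may be technical.

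Between 15457071 and 19157348 reads per library were counted on genes, and the members had 261 to 13921 counts per library. Unmapped reads were 8.13% to 8.48% of the control libraries but 16.8% and 15.9% of the co-cultured libraries, and reads that matched no gene on the strand counted were 47.3% to 51.2% of the control libraries but 40.1% and 40.8% of the co-cultured libraries. The part of these differences in the results was not tested. Of 16 endothelial markers, 6 never exceeded 3 counts, and PECAM1 and CDH5 stayed under 1 CPM (counts scaled to library size) throughout. VWF was higher, at 4.15 to 8.45 CPM over the libraries, and ERG was at 2.71 to 3.72 CPM. The controls differed among themselves, with 37, 27 and 2 counts of KDR and 31, 24 and 0 of TEK. After co-culture KDR had 12 and 4 counts and TEK 6 and 3. The summed CPM of the 16 markers was 8.60 to 19.9 in control against 11.8 and 12.1 after co-culture, and of the 8 that were tested only ESAM was called, at 3, 4 and 6 counts in control against 21 and 14 after co-culture, a call that was lost without co-cultured replicate 1. Of 13 neuroendocrine markers of SCLC, the synaptic vesicle protein gene SYP stood at 56.3 to 65.3 CPM in control against 90.2 and 86.2 CPM after co-culture, while CHGA had at most 1 count in any library. Across these 13, 12 were tested, of which 5 were called higher, 1 lower and 6 not called. That is 41.7% higher and 8.33% lower, against 18.4% and 15% of all genes tested. The one lower was DDC, an enzyme of amine synthesis, with 97.0, 66.6 and 67.3 CPM in control against 46.2 and 57.2 CPM after co-culture, and its call was lost in 3 alternatives, among them those without either co-cultured library.

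Co-culture with HBMECs was accompanied by higher mRNA levels along most of the route. Of the 10 genes, 8 were higher in co-cultured cells at an adjusted p under 0.05 by edgeR's quasi-likelihood test, where 18.4% of all genes tested were called higher. None of the 10 was called lower, against 15% of all genes, and none was lower at an unadjusted p under 0.05 or by DESeq2, which gave 8 higher and 0 lower. The genes that were not called were MTHFD1 and MTHFD2L. For the same 8 genes both co-cultured libraries lay above all 3 control libraries, which held for 29.4% of all genes, and for none were both below, as they were for 30% of all genes. The median log2 fold change of the 10 was 0.95, and that of all genes tested was -0.03. Summed over the 10 genes, the CPM was 1651, 1382 and 1447 in control against 2617 and 2744 after co-culture. In RNA from whole cultures, more cells that express a gene and more RNA per cell cannot be told apart. At the criterion of the study, an unadjusted p under 0.05 and a fold change over 1, read here on the log2 scale, 4 of the 10 were upregulated, namely PSPH, SHMT2, MTHFD1L and ALDH1L2, and none was downregulated, against 5.44% and 5.01% of all genes. That count ran from 4 to 6 over 12 other ways of processing, and it was 6 without control replicate 1, since PHGDH and PSAT1 lay just under the fold threshold.

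**Figure D1:**
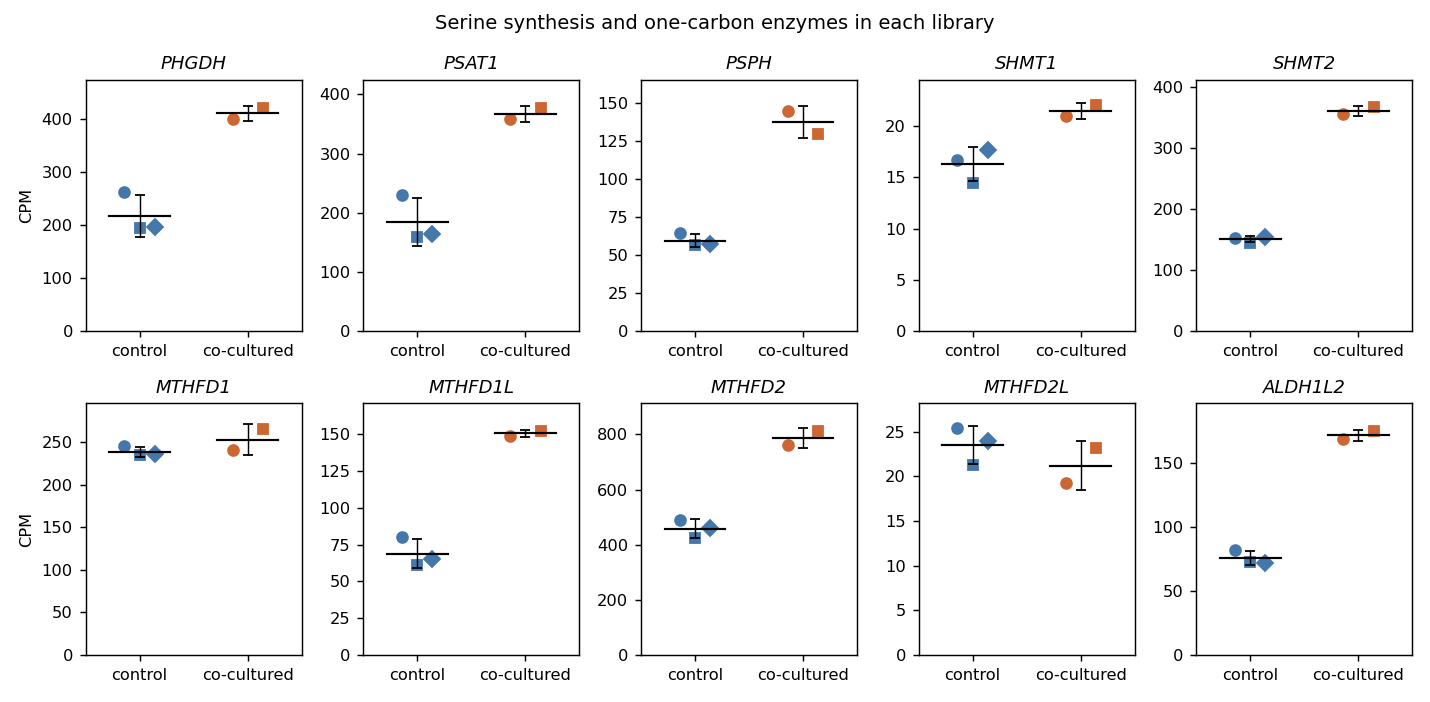
Expression of each of the 10 genes (vertical axis, CPM, starting at 0) in 3 control libraries (blue) and 2 co-cultured libraries (orange). Circles, squares and diamonds are replicates 1, 2 and 3, lines are group means and bars are SD; the groups are apart for 8 genes and overlap for MTHFD1 and MTHFD2L.

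Because most of the genes moved together, their promoters were compared for elements that bind factors known to act on this route. ATF4, the transcription factor of the amino acid stress response, binds TGATGNAAN, MYC proteins bind the E-box CACGTG, and the hypoxia-inducible factors bind elements with the core ACGTG, which lies within every CACGTG. In RefSeq's GRCh38.p14 promoter windows, which run from 250 bases before to 50 bases after a start site, 7 of the 10 genes were matched with 11 windows. PSPH, SHMT2 and ALDH1L2, which had the largest log2 fold changes of the 10, had no window and were not searched. Both strands were searched. The ATF4 letters were in the 3 overlapping windows of MTHFD1L, as TGATGCAAT, and in those of no other matched member, and 3.61% of all 35116 windows held them. CACGTG was in the windows of MTHFD1 and MTHFD1L (7.26% of all windows), and ACGTG was in those of MTHFD1, MTHFD1L and MTHFD2 (21.4% of all windows). The stretches that hold these letters are shown because they come from one gene that did not pass the test, MTHFD1, and from a pair that did. All lie on the plus strand, upstream of at least 1 annotated start site of the gene. They are at chr14:64388233-64388352 for MTHFD1, chr6:150866286-150866405 for MTHFD1L and chr2:74198365-74198484 for MTHFD2, with matches in capitals.
MTHFD1: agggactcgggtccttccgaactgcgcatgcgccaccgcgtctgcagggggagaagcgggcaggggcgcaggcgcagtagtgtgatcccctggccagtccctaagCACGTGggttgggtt
MTHFD1L: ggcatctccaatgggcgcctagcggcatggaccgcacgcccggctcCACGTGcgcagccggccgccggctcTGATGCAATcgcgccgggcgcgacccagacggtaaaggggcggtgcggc
MTHFD2: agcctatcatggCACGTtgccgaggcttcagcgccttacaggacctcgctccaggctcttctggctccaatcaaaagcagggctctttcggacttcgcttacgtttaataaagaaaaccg
MTHFD1L has 3 annotated start sites, and the E-box starts at -154, -115 or -1 and the ATF4 letters at -129, -90 or 25 from them, so that the ATF4 letters lie downstream of one. In MTHFD1 the E-box starts at -15, and in MTHFD2 the core is on the opposite strand at -238. These matches are letters in a window and no measure of binding.

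All 3 genes of serine synthesis rose. PHGDH, at chr1:119648411-119744226 on the plus strand (GRCh38), encodes the dehydrogenase that commits 3-phosphoglycerate to serine. Its CPM was 263, 194 and 196 in control against 400 and 421 after co-culture. Control replicate 1 was the highest control but stayed well under both co-cultured libraries. The log2 fold change was 0.91 (SE 0.13, adjusted p = 9.17e-04, from edgeR, Benjamini-Hochberg adjusted over all genes tested, as for every gene that follows).

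PSAT1 (chr9:78297143-78330093, plus strand) encodes the aminotransferase of the next step, which takes its amino group from glutamate. It had 231, 159 and 164 CPM in control against 358 and 377 CPM after co-culture, with a log2 fold change of 0.99 (SE 0.15, adjusted p = 1.14e-03). As for PHGDH, control replicate 1 lay above the other controls, by 0.52 on the log2 scale for PSAT1 and 0.43 for PHGDH, without reaching the co-cultured libraries. With this library left out, the log2 fold changes were 1.19 for PSAT1 and 1.08 for PHGDH.

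PSPH (chr7:56011051-56051604, minus strand) encodes the phosphatase that releases serine. Its CPM was 64.7, 56.6 and 57.7 in control against 145 and 130 after co-culture. The controls were close to each other, and the lower co-cultured library was above all of them. The log2 fold change of 1.21 (SE 0.09, adjusted p = 4.73e-05) was the largest of the 3. Together the 3 genes made up 558, 409 and 417 CPM in control against 903 and 927 CPM after co-culture.

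Of the serine hydroxymethyltransferases, which split serine into glycine and a folate-bound carbon, the mitochondrial SHMT2 (chr12:57229327-57234935, plus strand) had a log2 fold change close to that of PSPH. Its CPM was 153, 145 and 155 in control against 356 and 367 after co-culture. The libraries of each group lay close together, and the groups were far apart, with a log2 fold change of 1.26 (SE 0.07, adjusted p = 2.19e-05).

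The cytosolic SHMT1 (chr17:18327860-18363563, minus strand) was at a much lower count, with 16.7, 14.4 and 17.7 CPM in control against 20.9 and 22.0 CPM after co-culture. The groups did not overlap, but the gap between the highest control and the lower co-cultured library was as wide as the spread within the controls. The log2 fold change was 0.40 (SE 0.12, adjusted p = 3.22e-02), and this call was lost in 5 of 12 alternatives. Among these, the adjusted p was 0.0647 under upper-quartile normalization and 0.123, 0.190 and 0.101 without co-cultured replicate 1, co-cultured replicate 2 and control replicate 2. The fold change kept its sign throughout, from 0.32 to 0.47.

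Oxidation of the folate-bound carbon in mitochondria uses the dehydrogenase MTHFD2 or its paralog MTHFD2L, and MTHFD1L then releases formate. MTHFD2 (chr2:74198562-74217565, plus strand) had 491, 424 and 460 CPM in control against 761 and 812 CPM after co-culture. All co-cultured values were above all control values, and the log2 fold change was 0.78 (SE 0.09, adjusted p = 3.15e-04). MTHFD1L (chr6:150865549-151101887, plus strand) had 80.0, 61.3 and 65.2 CPM in control against 149 and 152 CPM after co-culture. Again control replicate 1 was the highest control, by 0.34 on the log2 scale, and far below the co-cultured pair. The log2 fold change was 1.13 (SE 0.11, adjusted p = 1.53e-04), and 1.26 without control replicate 1.

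ALDH1L2 (chr12:105019784-105084577, minus strand) encodes the mitochondrial enzyme that oxidizes formyltetrahydrofolate to carbon dioxide with the gain of NADPH. Its CPM was 81.6, 72.5 and 71.8 in control against 168 and 175 after co-culture, a log2 fold change of 1.19 (SE 0.08, adjusted p = 4.10e-05). The groups were far apart. ALDH1L2 overlaps C12orf45 on the other strand, and reads on that strand were 7.37% to 8.13% of the reads over ALDH1L2 in control against 2.66% and 2.08% after co-culture, and were not part of its count. Its cytosolic relative ALDH1L1 had 4 to 6 counts per library and was not tested.

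The genes that did not pass the test were one in each compartment. MTHFD1 (chr14:64388031-64463457, plus strand) encodes the cytosolic protein that carries out all 3 folate interconversions, and had 245, 234 and 236 CPM in control against 240 and 265 CPM after co-culture. The lower co-cultured library lay inside the control range. Its log2 fold change was 0.08 (SE 0.08, adjusted p = 0.447) and ran from 0.01 to 0.16 over the alternatives. ZBTB25 and the antisense genes AL122035.1 and AL122035.2 overlap MTHFD1 on the other strand. Of the reads over MTHFD1, 6.36% to 8.55% were on that strand and were not counted for it.

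MTHFD2L (chr4:74114174-74303099, plus strand), the mitochondrial paralog of MTHFD2, had 25.4, 21.2 and 24.0 CPM in control against 19.3 and 23.1 CPM after co-culture. The groups overlapped. The log2 fold change was -0.15 (SE 0.13, adjusted p = 0.377), the only negative value of the 10, and ran from -0.28 to -0.02 over the alternatives. By compartment, 4 of the 5 cytosolic genes and 4 of the 5 mitochondrial genes were called higher. Of the cytosolic genes called, 3 were those of serine synthesis, a step with no mitochondrial gene among the 10. The other was SHMT1, at 0.40, a call that was lost in some alternatives. The mitochondrial genes called were at 0.78 to 1.26.

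**Figure D2:**
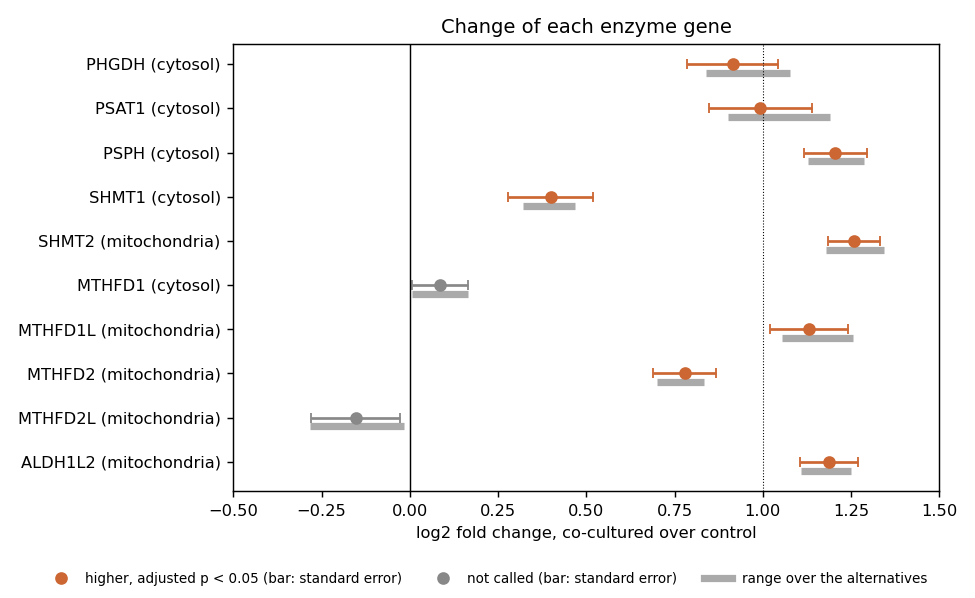
Change after co-culture as log2 fold change over control (horizontal axis) for each of the 10 genes, with its SE as a bar, and below it a gray band for the range over 12 alternative ways of processing. The dotted line is at the fold threshold of the study; SHMT2, PSPH, ALDH1L2 and MTHFD1L lie beyond it, and MTHFD1 and MTHFD2L lie next to 0.

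Ratios between paired genes were taken within each library, where they do not depend on scaling between libraries. They restate the fold changes above, library by library, and are no independent support for them. They were compared by an exact two-sided permutation test over libraries, which cannot give a p under 0.1 with 3 against 2. Of the 7 pairs, 5 reached that smallest p of 0.1, or 0.14 after Benjamini-Hochberg adjustment over the 7, so no pair could pass the threshold. The counts of SHMT2 were 9.16, 10.1 and 8.77 times those of SHMT1 in control against 17.0 and 16.7 times after co-culture. On the log2 scale this ratio rose by 0.85, from 3.22 ± 0.10 (SD, n = 3) to 4.07 ± 0.02 (SD, n = 2, exact permutation p = 0.1).

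The ratio of mitochondrial MTHFD1L to cytosolic MTHFD1 was 0.326, 0.262 and 0.276 in control against 0.620 and 0.575 after co-culture, a log2 difference of 1.06. That of MTHFD2 to MTHFD1 was 2.002, 1.81 and 1.95 in control against 3.17 and 3.06 after co-culture, a log2 difference of 0.70. Within mitochondria, MTHFD2 over MTHFD2L was 19.4, 20.0 and 19.2 in control against 39.4 and 35.1 after co-culture, a log2 difference of 0.93. In these 3 pairs the groups did not overlap. The control libraries lay close together for both MTHFD2 ratios. For MTHFD1L over MTHFD1 control replicate 1 stood above the other controls, with a log2 SD of 0.16 in control. In contrast, ALDH1L2 over MTHFD1L was 1.02, 1.18 and 1.10 in control against 1.13 and 1.14 after co-culture, with overlapping groups and a log2 difference of 0.05 (exact permutation p = 0.7).

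Within serine synthesis the differences between groups were smaller in size. PSAT1 over PHGDH was 0.877, 0.819 and 0.836 in control against 0.894 and 0.895 after co-culture, a log2 difference of 0.08 (exact permutation p = 0.2, adjusted 0.233). PSPH over PHGDH was 0.246, 0.292 and 0.295 in control against 0.363 and 0.309 after co-culture, a log2 difference of 0.28 (exact permutation p = 0.1). The groups did not overlap in either pair, but for both the nearest libraries of the groups were close.

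**Figure D3:**
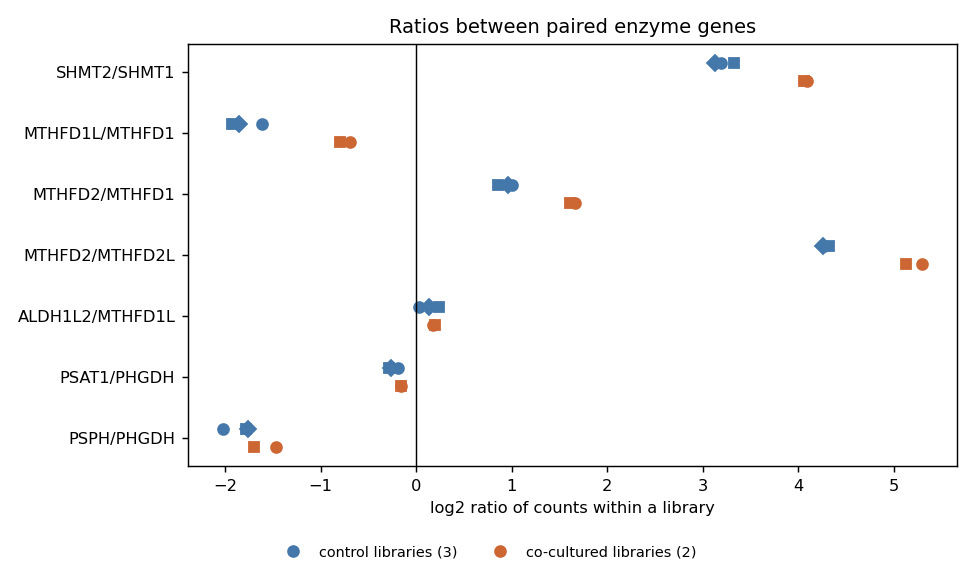
Log2 ratio of the counts of paired genes within a library (horizontal axis), with 3 control libraries in blue and 2 co-cultured libraries in orange. The mitochondrial over cytosolic pairs and MTHFD2/MTHFD2L are shifted to the right in co-cultured libraries, by 0.70 to 1.06, and ALDH1L2/MTHFD1L overlaps.

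Levels were compared between genes as CPM per kilobase of the principal transcript, as a description. In control cells MTHFD2 had the highest level, 103 ± 7.53 (SD, n = 3), followed by PSAT1 at 84.3 ± 18.3, PHGDH at 84.2 ± 15.2, MTHFD1 at 76.0 ± 1.91 and SHMT2 at 59.5 ± 2.02. PSPH stood at 27.4 ± 2.02, MTHFD1L at 19.1 ± 2.73, MTHFD2L at 10.2 ± 0.916, ALDH1L2 at 9.97 ± 0.723 and SHMT1 at 6.60 ± 0.673. The SD ranges overlapped between neighbors from MTHFD2 to MTHFD1, and between MTHFD2L and ALDH1L2. In co-cultured cells MTHFD2 was again first, at 176 ± 8.06 (SD, n = 2), with PSAT1 at 168 ± 6.07, PHGDH at 159 ± 5.59 and SHMT2 at 143 ± 3.19, while MTHFD1 was at 80.6 ± 5.66. The SD ranges of MTHFD2 and PSAT1, and of PSAT1 and PHGDH, overlapped there too. ALDH1L2 was at 22.7 ± 0.584 and MTHFD2L at 9.22 ± 1.18. The order depends on the length used. With all exons of a gene merged, PHGDH ranked 5 of 10 in control cells, at 23.6 CPM per kilobase, SHMT2 at 31.2 was already above MTHFD1 at 25.4, and ALDH1L2 at 8.85 above MTHFD2L at 2.40. On that scale PSAT1, at 168, was above MTHFD2, at 161, after co-culture. Pseudogene copies named after a member had at most 4 counts in any library.

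The genes around the route were read from 11 lists of 122 genes, of which 103 passed the filter. Over all genes tested, 18.4% were called higher and 15% lower. The 5 tested transporters of serine and glycine uptake were all called higher, none lower (also none at an unadjusted p under 0.05 or by DESeq2), at a median of 0.80 on the log2 scale. Without co-cultured replicate 2, 3 of them were called higher. SLC38A2, a sodium-coupled neutral amino acid transporter, had 434, 355 and 340 CPM in control against 695 and 750 CPM after co-culture (log2 fold change 0.94, adjusted p = 3.73e-04). SLC38A1 of the same family rose by 0.94 and SLC1A4, a serine and alanine exchanger, by 0.80 on the log2 scale. As for PHGDH and PSAT1, control replicate 1 was the highest control for all 3, and below both co-cultured libraries.

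The lower part of glycolysis makes 3-phosphoglycerate and also carries it on toward pyruvate. All 6 genes from GAPDH to PKM were called higher and none lower, at a median of 0.86 on the log2 scale, with no gene lower at an unadjusted p under 0.05 or by DESeq2. PGK1, which makes 3-phosphoglycerate, had 349, 308 and 353 CPM in control against 1129 and 881 CPM after co-culture, a log2 fold change of 1.58. PGAM1, which draws on the same 3-phosphoglycerate, rose by 1.001, and ENO1 by 1.42.

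Other lists hold genes that supply folate or use serine, glycine and carbon units. Of the 10 tested genes of folate supply, 2 were called higher, none lower (none at an unadjusted p under 0.05 or by DESeq2) and 8 not called, with a median of 0.08. This is near the 18.4% of all genes called higher. The call of the folate transporter SLC46A1 (log2 fold change 0.34) was lost or turned in 9 of 12 alternatives, and the value was -0.18 with reads of both strands, since most reads over it lay on the other strand. DHFR2, a mitochondrial dihydrofolate reductase, had a log2 fold change of 0.30 and lost its call in 5 alternatives. The mitochondrial folate carrier SLC25A32 was at 0.21 (adjusted p = 0.298). Over the alternatives, 0 to 4 genes of this list were called higher.

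Glycine cleavage and mitochondrial transport had 2 genes higher and 2 lower of 7, or 28.6% each, against 18.4% and 15% of all genes. GLDC, the glycine decarboxylase, had 16.3, 15.8 and 14.4 CPM in control against 7.98 and 10.5 CPM after co-culture, and fell by 0.75 on the log2 scale (adjusted p = 0.00522), a call that was lost without co-cultured replicate 1. SFXN3, a sideroflexin of the family that carries serine into mitochondria, fell by 0.80. In the other direction DLD, a subunit that glycine cleavage shares with other complexes, was at 0.40 and GCAT, a glycine-forming enzyme, at 0.43. Each lost its call in 3 alternatives, among them those without either co-cultured library.

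Of the genes that use serine directly, 1 was called higher and 1 lower of 5. That is 20% each, near the 18.4% and 15% of all genes. The serine palmitoyltransferase subunit SPTLC2 had a log2 fold change of -0.36, and serine racemase, SRR, of 0.26, which was called in 3 of 12 alternatives. The methionine cycle and transsulfuration list had 1 higher and 1 lower of 10, or 10% each, below the shares over all genes. CBS, which joins serine to homocysteine, was at 0.51 and MAT2A, which makes S-adenosylmethionine, at -0.47. Without co-cultured replicate 1 neither was called, and MAT2A was not called without co-cultured replicate 2 either.

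Purine and thymidylate synthesis, which spend the carbon units, had 2 genes higher, 3 lower and 2 not called of 7. That is 28.6% higher and 42.9% lower, against 18.4% and 15% of all genes. PAICS was at 0.47 and TYMS, the thymidylate synthase, at 0.32. PFAS fell by 0.65, GART by 0.41 and ADSL by 0.48 on the log2 scale, GART being a purine enzyme that takes a formyl group from folate. The call of TYMS was lost or turned in 6 alternatives, at -0.01 with reads of both strands, and that of ADSL was lost in 4 and that of SPTLC2 in 3. Without co-cultured replicate 1 this list had 0 genes called higher and 1 lower, and GART and PAICS were not called. Of 15 genes of S phase, 5 were called higher and 5 lower, or 33.3% each. Among the higher were TK1 (0.68), PCNA (0.53) and CDC6 (0.45), and among the lower TOP2A, MCM5 and MCM7, which fell by 0.68, 0.61 and 0.54. Without co-cultured replicate 1 the counts were 1 higher and 3 lower, and without co-cultured replicate 2 they were 3 and 3. TK1 lost its call without the first of these libraries and CDC6 without either.

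Most genes known as ATF4 targets were called higher as well, while ATF4 mRNA itself did not pass the test. Of the 20 tested genes of the list, which holds ATF4 too, 15 were called higher, 1 lower and 4 not called, at a median of 1.14 on the log2 scale. Those not called were ATF4 and its targets ASNS (0.22), ALDH18A1 (0.17) and VLDLR (0.10). ATF4 had 517, 469 and 458 CPM in control against 538 and 563 CPM after co-culture, a log2 fold change of 0.19 (adjusted p = 0.112). The groups did not overlap, and without control replicate 1 the gene was called, with a log2 fold change of 0.25. DDIT4, an inhibitor of mTORC1, had 121, 124 and 176 CPM in control against 757 and 623 CPM after co-culture and rose by 2.30, TRIB3 by 1.47 and CEBPG by 1.19. ATF5, a factor related to ATF4, was the one called lower, at -0.42, with the call lost in 3 alternatives. Of 12 cytosolic aminoacyl-tRNA synthetase genes, many of them known ATF4 targets, 11 were called higher and none lower (none at an unadjusted p under 0.05 or by DESeq2), with a median of 0.73. Without co-cultured replicate 2, 7 were called higher. SARS, which charges the tRNA of serine, rose by 1.02, TARS by 0.94 and AARS by 0.83.

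Among factors known to regulate the route, 4 of the 6 tested were called higher and 1 lower. MYCL, the MYC paralog of many SCLC lines, had 643, 444 and 515 CPM in control against 204 and 246 CPM after co-culture. Both co-cultured libraries were far below all controls, and MYCL fell by 1.25 on the log2 scale (adjusted p = 4.77e-04). MYC had 16, 6 and 4 counts in control against 2 and 2 after co-culture, and MYCN had 10, 6 and 0 counts in control and 0 in both co-cultured libraries, and neither was tested. EPAS1 rose by 1.48 and HIF1A by 1.08, both subunits of hypoxia-inducible factors, and KDM4C, a histone demethylase, rose by 0.62.

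**Figure D4:**
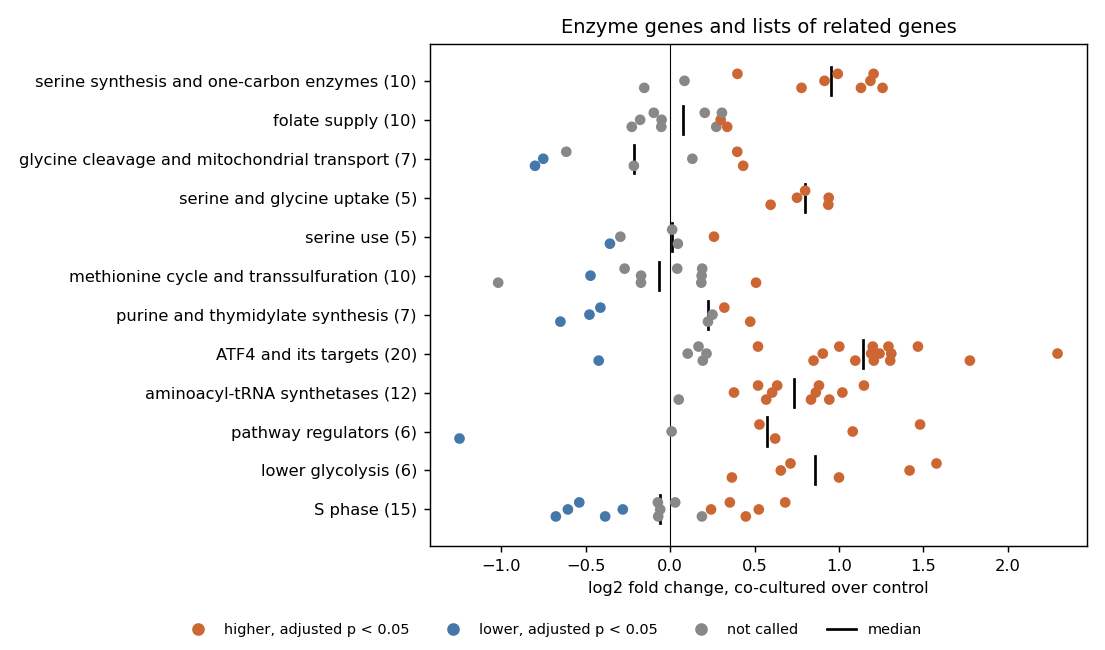
Change after co-culture as log2 fold change over control (horizontal axis) for the 10 enzyme genes and the tested genes of 11 related lists, with the number of genes in brackets; each point is a gene, colored by its call, and the black line is the median. Uptake, lower glycolysis, ATF4 targets and aminoacyl-tRNA synthetases have medians of 0.73 to 1.14, and the lists of folate supply, glycine cleavage, serine use, the methionine cycle, purine synthesis and S phase lie on both sides of 0.

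The genes whose profile over the 5 libraries was most like that of MTHFD2 were MMADHC, BOLA3, ZNF503, MAGEA3 and ARCN1. They were found among 10593 genes with a mean of at least 10 CPM as those with the smallest root mean square difference in centered log2 CPM, which ran from 0.0177 for MMADHC to 0.0328 for ARCN1. Their log2 fold changes were 0.77, 0.75, 0.74, 0.78 and 0.76, a closeness to MTHFD2 that the way they were chosen fixes.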

How the data were processed

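The authors deposited raw read counts per gene for each library, without regard to strand and for each strand. The submitters' processing notes name CASAVA 1.8, STAR 2.6.1b, DESeq2 and GRCh38. The authors' comparison table holds their fold changes and p-values, of which nothing but gene names was used. Counts of the strand that held 92.3% to 93.1% of genic reads were analysed, and the summary lines for unmapped and unassigned reads were left out. A count from rRNA-depleted RNA can include unspliced transcripts. Genes were annotated from GENCODE release 29.

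Genes were kept by filterByExpr, normalized by TMM and tested with edgeR 4.0.16 (quasi-likelihood, R 4.3.3) with p-values adjusted by Benjamini and Hochberg's method over those 20360. CPM values use TMM library sizes. SE was taken as log2 fold change over the root of the F statistic. The steps were tested on simulated data in which far fewer genes changed than were called here. That test does not cover changes as wide as these. Counting error at this depth is part of each SE.

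The members, the 11 gene lists, the marker lists and the motifs were chosen with earlier results of these data known. Named genes were all members and up to 3 genes with the smallest p per list and direction. ATF4, MYC, MYCN, MYCL, TYMS, ALDH1L1, GLDC and SLC25A32 were named whatever their values. PECAM1, CDH5, VWF, ERG, KDR, TEK, CHGA, ASNS, VLDLR and ALDH18A1 were named after their values were seen. The alternatives were a fit by DESeq2 1.42.0, scaling by median ratios or by upper quartiles, a filter keeping genes with 1 count in any library or with 10 in every library, unstranded counts, a replicate block, and each library left out in turn. Replicate numbers were not known to pair the samples. The result of 1 marker gene is not reported here.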

Additional observations from a re-analysis of the deposited data

Results flagged for a closer look

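Reads on the strand opposite to SHMT2 were outside the comparisons and, in CPM, were higher in the co-cultured libraries than in every control. They numbered 31, 29 and 33 in control against 54 and 33 after co-culture. Co-cultured replicate 2 therefore matched control replicate 3 before scaling to library size. In CPM the reads stood at 1.65, 1.604 and 1.69 in control against 2.95 and 2.18 after co-culture. As a share of all reads over SHMT2 they were 1.07% to 1.09% in control against 0.823% and 0.590% after co-culture. NDUFA4L2 overlaps SHMT2 on that strand, and its part in these reads was not tested.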

How the results depend on the processing

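The number of members called higher stayed at 7 to 8 and the number called lower at 0 under all 12 alternatives. Of 659 values of 55 named genes, 594 kept direction and side of the threshold, 61 lost the call, 1 gained it and 3 reversed. The lost calls were most often those without co-cultured replicate 1 (19) or 2 (13). The reversals were in unstranded counts, with SLC46A1 at -0.18, SLC25A32 at -0.10 and TYMS at -0.00946, where reads of the other strand are added. The ALDH1L2/MTHFD1L ratio difference turned to -0.0520 in unstranded counts and to -0.00526 without control replicate 1, and over libraries left out in turn it ran from -0.00526 to 0.10. Genes called lower over the 11 lists were 14, and 6 to 18 with each library left out, 6 without co-cultured replicate 1 and 8 without co-cultured replicate 2, where the lone co-cultured library is assumed to vary like the controls. Over all genes, 3750 were called higher and 3059 lower, against 3076 and 3929 under upper-quartile normalization. With each library left out, the calls ran from 1749 higher and 985 lower without co-cultured replicate 1 to 5295 and 4602 without control replicate 1. No scaling moved the median of all genes by more than 0.08. The replicate numbers are not known to pair cultures, so the main fit took no pairs. Deviations of same-numbered libraries from their group means had correlations of -0.11 and -0.07 across genes. With 2 co-cultured libraries their deviations mirror each other, so these correlations cannot settle whether the numbers are pairs. With a replicate block 2771 genes were called higher and 2053 lower, of the members 7 were called higher, and SHMT1 had an adjusted p of 0.0584. With 2 co-cultured libraries the spread of that group is poorly known. The cause of these changes was not tested.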
